A study of Homo sapiens with 12 samples.

Results

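P-TEFb is the kinase that releases paused RNA polymerase II into productive elongation, and the 9 genes described here encode its parts, its 7SK inhibitor and the super-elongation complex that carries it. They are CDK9, CCNT1 and CCNT2 (the kinase and its cyclin T subunits), HEXIM1, HEXIM2, LARP7 and MEPCE (proteins of the 7SK particle), and AFF4 and ELL2 (super-elongation subunits). Probe sets were chosen by the gene symbol of the platform annotation among 18404 genes on 12 arrays. A probe set naming that gene alone was found for 8 of the 9 genes, and the 8 held 9 probe sets, since ELL2 had 2. LARP7 was measured only by a probe set that names ZGRF1 as well, so no LARP7 level is given.

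The series asked which genes depend on EWS-FLI1, the fusion transcription factor of Ewing sarcoma, and whether actinomycin D changes them. RNA of A673 cells, an established Ewing sarcoma line that carries this fusion, was hybridised to Affymetrix HuGene 1.0 ST arrays, with 2 arrays in each of 6 groups. In the drug experiment the groups were untreated cells at time 0, DMSO for 24 h, 5 nM actinomycin D for 24 h and 50 nM actinomycin D for 24 h, and in the shRNA experiment FLI1 shRNA and lacZ shRNA. Each shRNA was a single lentiviral hairpin, given with Polybrene for 24 h and followed by 48 h of puromycin, per the labels, while the drug and DMSO cells received no virus. All values come from 1 cell line, so they describe A673 cells and no other tumour. The labels do not say that the 2 arrays of a group came from separate cultures. The paper's methods state duplicate treatment for DMSO and 5 nM actinomycin D, and name no duplicates for the other arrays. Every p-value thus speaks of spread among these 12 arrays alone, and that spread may be technical where duplicates are not stated.

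Actinomycin D is a DNA intercalator that prefers the step from G to C and blocks moving polymerases, with RNA polymerase I the most sensitive. In most cells part of P-TEFb is held inactive by the 7SK small nuclear RNA together with HEXIM proteins, LARP7 and the capping enzyme MEPCE, and stress of transcription frees it. Freed P-TEFb phosphorylates the polymerase tail and its pausing factors, on its own or within the super-elongation complex built on AFF1 or AFF4. HEXIM1 is also known as a gene whose transcript rises when P-TEFb is released.

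Log2 signal differs between probe sets for reasons other than abundance, so levels of the genes described here are compared only within a gene. In FLI1 shRNA cells FLI1 itself was at 7.30 and 7.08 log2 signal, against 8.63 and 8.45 in lacZ shRNA cells, and so fell by 1.35 (SE 0.09, adjusted p 5.39e-06), although this probe set does not separate the fusion from any wild-type FLI1. The 2 arrays of a group correlated at 0.9949 to 0.998. Ewing sarcoma markers (6 of 7 measured) averaged 9.66 to 9.70 log2 signal on the FLI1 shRNA arrays and 9.88 to 10.71 on the others. Epithelial (5 of 5), blood (4 of 5) and endothelial (4 of 4) markers averaged 5.80 to 6.21, 4.81 to 5.34 and 5.41 to 5.74, against medians of all genes of 7.36 to 7.47. These averages join different probe sets, so they are a rough description and not a measure of abundance. Fewer cells of a type and less RNA per cell cannot be told apart in such bulk RNA.

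The promoters of 5 of these genes, each called in at least 1 drug comparison, are printed first, so that their motifs can be seen beside the values: the ETS core CCGGAAG of the EWS-FLI1 oligonucleotide in the methods, and the TATAAA and CCAAT boxes. Windows run from 250 bases before to 50 after the annotated start, from RefSeq on GRCh38.p14, in which 8 of the 9 genes matched. Capitals mark the ETS core or either box on either strand, so ATTGG stands for CCAAT read from the other strand.
HEXIM1, chr17:45148225-45148524, plus strand: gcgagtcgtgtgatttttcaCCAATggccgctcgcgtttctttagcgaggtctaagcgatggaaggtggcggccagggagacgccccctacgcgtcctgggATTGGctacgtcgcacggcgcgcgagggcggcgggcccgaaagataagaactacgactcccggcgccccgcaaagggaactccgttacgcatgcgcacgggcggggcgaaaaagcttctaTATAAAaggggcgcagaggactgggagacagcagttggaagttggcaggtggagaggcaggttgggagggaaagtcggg
CCNT1, chr12:48716658-48716957, minus strand: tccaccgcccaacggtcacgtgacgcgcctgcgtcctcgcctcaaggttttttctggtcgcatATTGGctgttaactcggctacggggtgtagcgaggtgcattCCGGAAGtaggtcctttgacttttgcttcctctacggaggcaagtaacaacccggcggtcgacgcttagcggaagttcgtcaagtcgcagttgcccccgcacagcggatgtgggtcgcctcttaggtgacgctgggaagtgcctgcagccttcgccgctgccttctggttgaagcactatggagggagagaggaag
CCNT2, chr2:134918572-134918871, plus strand: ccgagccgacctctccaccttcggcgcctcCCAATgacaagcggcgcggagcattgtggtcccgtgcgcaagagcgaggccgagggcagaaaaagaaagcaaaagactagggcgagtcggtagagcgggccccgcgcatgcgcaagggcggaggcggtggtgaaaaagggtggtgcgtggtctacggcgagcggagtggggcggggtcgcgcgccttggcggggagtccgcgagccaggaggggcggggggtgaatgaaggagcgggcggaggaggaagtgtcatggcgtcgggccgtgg
CDK9, chr9:127785784-127786083, plus strand: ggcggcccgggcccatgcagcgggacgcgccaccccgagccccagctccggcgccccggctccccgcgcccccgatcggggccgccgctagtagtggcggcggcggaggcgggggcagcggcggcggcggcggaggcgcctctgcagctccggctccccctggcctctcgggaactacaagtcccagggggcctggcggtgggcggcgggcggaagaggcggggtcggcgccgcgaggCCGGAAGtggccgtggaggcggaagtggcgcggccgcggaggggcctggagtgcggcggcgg
AFF4, chr5:132963585-132963884, minus strand: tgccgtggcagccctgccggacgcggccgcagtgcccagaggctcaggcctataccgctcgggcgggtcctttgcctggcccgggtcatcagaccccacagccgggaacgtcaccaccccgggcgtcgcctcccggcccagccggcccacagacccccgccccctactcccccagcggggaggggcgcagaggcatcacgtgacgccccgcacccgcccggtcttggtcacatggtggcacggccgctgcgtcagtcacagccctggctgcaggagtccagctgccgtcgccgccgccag
Of 35116 such windows over all genes, CCGGAAG is in 10.3%, TATAAA in 11.5% and CCAAT in 34.6%. CCGGAAG stands once each in the CDK9 and CCNT1 windows, with its first base 12 and 146 bases before the start. TATAAA stands in the HEXIM1 window, 29 bases before the start, together with 2 CCAAT boxes. The printed CCNT1 and CCNT2 windows hold 1 CCAAT box each. MEPCE, also called at both doses, has 3 windows that are not printed, and the first of them holds 1 CCAAT box. HEXIM2 and LARP7, also not printed, hold 2 CCAAT boxes each in 1 of their windows. The AFF4 window holds none of the 3 motifs, which says only that these letters are not in it. The windows held 53 GpC steps in CDK9, 40 in AFF4, 37 in CCNT2, 32 in HEXIM1 and 28 in CCNT1, against a median of 25 over all windows. CCNT1 has a second annotated start, whose window held 9 GpC steps and none of the 3 motifs, and over all 13 windows of the matched genes the number ran from 9 to 53.

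At 5 nM, 6 of the 8 genes were higher than in DMSO and 1, AFF4, was lower (limma, adjusted p under 0.05 over all genes). Of all genes, 30.3% were higher and 23.0% lower in this comparison. The median change of the 8 genes was 0.46 log2 units, against 0.12 over all genes. That median of all genes depends on the scaling: with arrays centred on 58 ribosomal protein genes it was -0.24, and 16.7% of calls were higher, against 56.9% with the values as deposited. With that centring only HEXIM1 and CCNT1 stayed called higher, and AFF4 stayed lower.

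HEXIM1, the inhibitor that holds P-TEFb in the 7SK particle, had the largest rise of the 8 genes at 5 nM. Its signal was 8.57 and 8.63 in DMSO, 9.80 and 9.85 at 5 nM, and 8.67 and 8.66 at 50 nM. Both 5 nM arrays stood above every other array of the series, and the 50 nM arrays lay just above the DMSO arrays. The change at 5 nM was 1.23 (SE 0.07, 2.34-fold, adjusted p 1.1e-07), at percentile 98.5 of all genes, and 1.11 relative to the median of all genes. At 50 nM it was 0.06 (95% interval -0.09 to 0.22, adjusted p 0.445), a difference that turns to -0.20 with ribosomal protein centring and to 0.31 (adjusted p 0.00619) with a second quantile normalization. The direct contrast of 50 nM against 5 nM was -1.16 (adjusted p 1.58e-07).

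HEXIM2, a paralog that shares the P-TEFb-binding role, had no call at either dose. Its signal was 7.83 and 8.13 in DMSO, 8.10 and 8.05 at 5 nM, and 7.91 and 7.90 at 50 nM. The DMSO arrays, 0.30 apart, overlapped with both dose groups, and the 5 nM arrays lay above the 50 nM arrays without overlap. The changes against DMSO were 0.10 (95% interval -0.17 to 0.36, adjusted p 0.523) at 5 nM and -0.08 (95% interval -0.34 to 0.19, adjusted p 0.612) at 50 nM. Neither direction held under other scalings, since the 5 nM value was -0.26 (adjusted p 0.0981) with ribosomal protein centring and the 50 nM value was 0.12 (adjusted p 0.437) with a second quantile normalization. The 2 genes lie next to each other on chromosome 17, 8.07 kb apart, and HEXIM2-AS1, a long non-coding RNA, is the one gene annotated as covering part of the stretch between them.

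CCNT1, the cyclin that pairs with CDK9 and binds HEXIM1, rose at 5 nM and fell at 50 nM. Its signal was 10.69 and 10.66 in DMSO, 11.62 and 11.65 at 5 nM, and 10.05 and 10.01 at 50 nM. The 3 groups did not overlap, with the 5 nM arrays highest of the series and the 50 nM arrays lowest. The change was 0.96 (SE 0.07, adjusted p 8.64e-07) at 5 nM and -0.65 (SE 0.07, adjusted p 3.21e-05) at 50 nM.

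CCNT2, the other cyclin T, also rose at 5 nM and fell at 50 nM. Its signal was 9.62 and 9.63 in DMSO, 10.16 and 10.08 at 5 nM, and 8.59 and 8.52 at 50 nM. No array of one group entered the range of another. The rise at 5 nM was 0.49 (SE 0.07, adjusted p 0.000221), and 0.13 (adjusted p 0.131) with ribosomal protein centring, while the fall at 50 nM was by 1.07 (SE 0.07, adjusted p 1.16e-06), the largest of the 8 genes in that comparison.

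CDK9, the kinase, had signals of 10.74 and 10.79 in DMSO, 11.33 and 11.11 at 5 nM, and 9.91 and 10.02 at 50 nM. The groups did not overlap, and the 2 arrays at 5 nM were 0.23 apart, the widest gap of the gene. The change was 0.46 (SE 0.08, adjusted p 0.000821) at 5 nM and -0.80 (SE 0.08, adjusted p 2.24e-05) at 50 nM, and the 5 nM value was 0.10 (adjusted p 0.304) with ribosomal protein centring.

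MEPCE, which caps the 5′ end of 7SK RNA and stays bound to it, had signals of 9.85 and 9.90 in DMSO, 10.38 and 10.30 at 5 nM, and 8.89 and 8.83 at 50 nM. The 5 nM arrays were above and the 50 nM arrays below all 4 control arrays of the drug experiment. The change was 0.46 (SE 0.07, adjusted p 0.000161) at 5 nM and -1.01 (SE 0.07, adjusted p 8.73e-07) at 50 nM. With ribosomal protein centring the 5 nM value was 0.10 (adjusted p 0.204).

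AFF4, the scaffold of the super-elongation complex, went the other way at 5 nM. Its signal was 10.85 and 10.76 in DMSO, 9.79 and 9.82 at 5 nM, and 10.65 and 10.68 at 50 nM. The 5 nM arrays stood below all the others, which lay within 10.65 to 10.95. The fall at 5 nM was by 1.00 (SE 0.07, adjusted p 6.18e-07), whereas the change at 50 nM was -0.14 (95% interval -0.30 to 0.01, adjusted p 0.114) and reached the threshold with ribosomal protein centring, at -0.40 (adjusted p 0.000698), and with trend and robust estimation (adjusted p 0.0428).

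ELL2, an elongation factor subunit that curbs polymerase pausing, changed less with the drug than the other called genes. Its signal was 7.67 and 7.71 in DMSO, 8.08 and 7.91 at 5 nM, and 7.37 and 7.38 at 50 nM. The groups did not overlap, but the 5 nM rise of 0.31 (SE 0.09, adjusted p 0.0119) flips to -0.05 (adjusted p 0.58) with ribosomal protein centring. The fall at 50 nM was by 0.31 (SE 0.09, adjusted p 0.0122). The 5 nM call was also lost with the mean over both probe sets (0.20, adjusted p 0.188), without DMSO replicate 1 (adjusted p 0.0632) or without 5 nM replicate 1 (0.0768), and the 50 nM call without DMSO replicate 2 (0.0593).

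**Figure D1:**
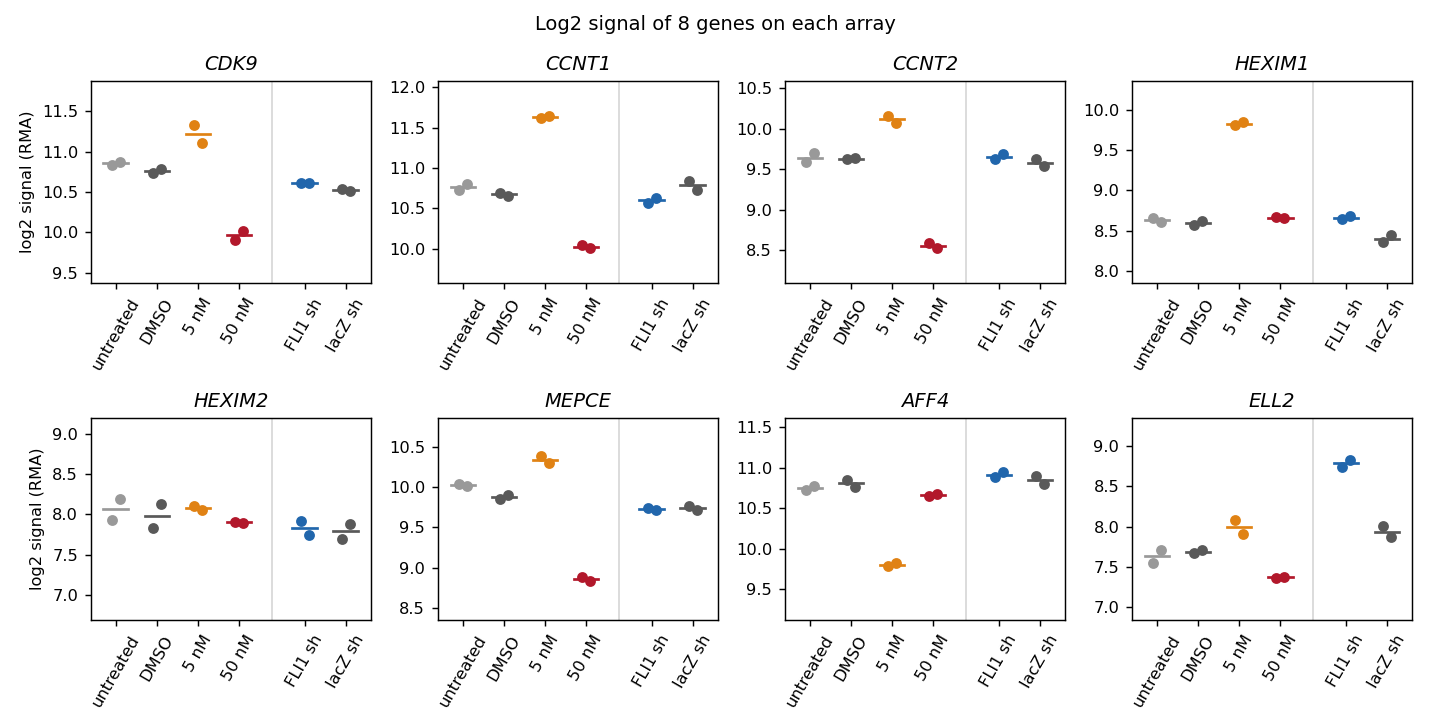
Log2 signal (RMA) of 8 genes, one panel each with y axes of equal height; each point is 1 array and each bar the mean of 2 arrays, with the drug experiment left of the grey line and the shRNA experiment right of it. CCNT1, CCNT2, CDK9 and MEPCE sit highest at 5 nM and lowest at 50 nM, HEXIM1 stands apart at 5 nM (9.80 and 9.85) and AFF4 falls there to 9.79 and 9.82.

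At 50 nM no gene of the 8 was called higher than in DMSO and 5 were called lower (limma, adjusted p under 0.05). Of all genes, 25.8% were higher and 23.3% lower at the adjusted threshold. CDK9, CCNT1, CCNT2, MEPCE and ELL2 were the 5. The median change of the 8 genes was -0.48, against 0.10 over all genes. The value over all genes was -0.16 with ribosomal protein centring, which left 12% of calls higher, against 52.5% as deposited. Both doses were set against the same DMSO arrays, so the changes are given here side by side and not as independent evidence.

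Between the doses, 50 nM against 5 nM, 6 of the 8 genes were lower and 1, AFF4, was higher, against 23.1% lower and 21.6% higher over all genes. The values were -1.61 for CCNT1, -1.56 for CCNT2, -1.48 for MEPCE, -1.25 for CDK9 and -0.62 for ELL2. AFF4 was 0.86 higher (SE 0.07, adjusted p 1.84e-06), and HEXIM2 was -0.17 (95% interval -0.44 to 0.09, adjusted p 0.286). The median of the 8 genes was -1.21, against 0.02 over all genes, which was 0.12 with ribosomal protein centring.

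**Figure D2:**
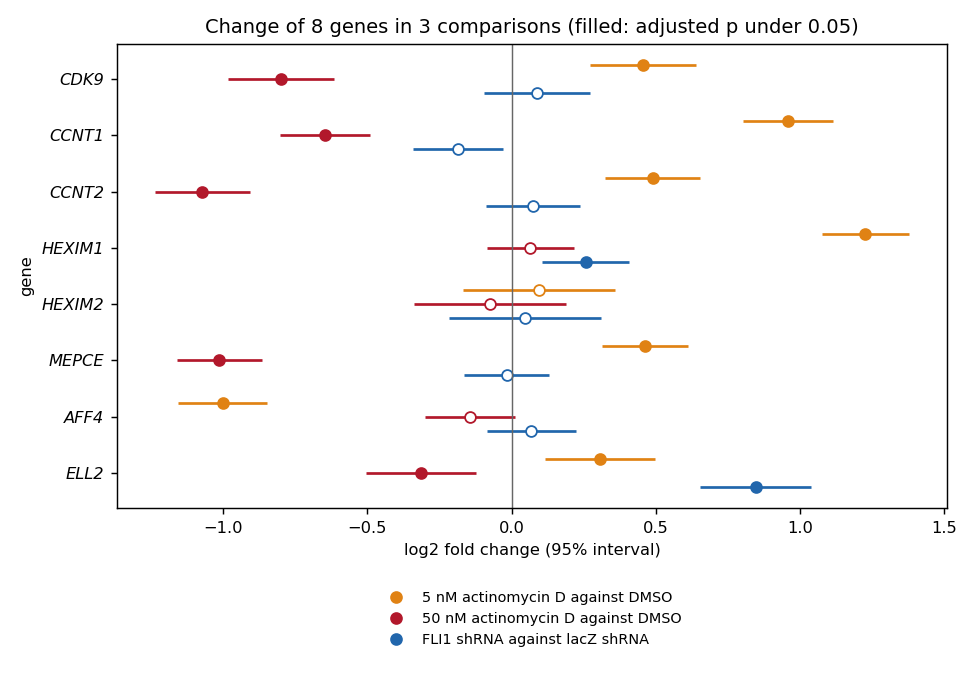
Log2 fold change with 95% interval (x axis) of 8 genes (y axis) at 5 nM and 50 nM actinomycin D against DMSO and for FLI1 shRNA against lacZ shRNA, filled where the adjusted p was under 0.05. The drug points of CDK9, CCNT1, CCNT2 and MEPCE lie on opposite sides of 0 at the 2 doses, those of ELL2 likewise until ribosomal protein centring turns its 5 nM value to -0.05. FLI1 shRNA points lie near 0 except for ELL2 (0.85), HEXIM1 (0.26) and CCNT1 (-0.19, interval -0.34 to -0.03, not called).

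After FLI1 shRNA, 2 of the 8 genes were called higher than with lacZ shRNA, ELL2 and HEXIM1, and none lower (limma, adjusted p under 0.05). Of all genes, 14.6% were higher and 9.28% lower at the adjusted threshold. The median change of the 8 genes was 0.07, against -0.01 over all genes.

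ELL2 had signals of 8.74 and 8.82 with FLI1 shRNA, against 8.00 and 7.87 with lacZ shRNA. Both FLI1 shRNA arrays stood above all 10 other arrays. The rise was 0.85 (SE 0.09, 1.8-fold, adjusted p 6.12e-05), at percentile 98.0 of all genes, and kept its call in each alternative tried except the fold threshold of 2. The other ELL2 probe set gave 0.60 (SE 0.19, adjusted p 0.0403 over 19158 probe sets), with 8.41 and 8.42 against 8.02 and 7.60, and its 5 nM change was 0.10 (adjusted p 0.679).

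HEXIM1 had signals of 8.64 and 8.68 with FLI1 shRNA, against 8.36 and 8.45 with lacZ shRNA. The pairs did not overlap, and the rise was 0.26 (SE 0.07, adjusted p 0.019). This call was lost without FLI1 shRNA replicate 1 (adjusted p 0.0742), without FLI1 shRNA replicate 2 (0.12), without lacZ shRNA replicate 1 (0.114), after a second quantile normalization (0.0986), and in a fit of only these groups (0.0573). The lacZ shRNA arrays were also the lowest of the series for HEXIM1.

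CCNT1 had signals of 10.57 and 10.63 with FLI1 shRNA, against 10.85 and 10.73 with lacZ shRNA, without overlap. The change was -0.19 (95% interval -0.34 to -0.03, adjusted p 0.0841) and passed the threshold in 3 alternatives, at adjusted p 0.0181 to 0.0379. The changes of CDK9, CCNT2, HEXIM2, MEPCE and AFF4 lay between -0.02 and 0.09, with adjusted p of 0.498 to 0.885.

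The shRNA response minus the 5 nM response, which share no arrays, differed for 7 of the 8 genes: 5 were lower and 2 higher. Over all genes 23.7% were lower and 22.8% higher. The difference was -1.15 for CCNT1 (adjusted p 5.59e-06), -0.97 for HEXIM1 (1.36e-05), -0.48 for MEPCE (0.00184), -0.42 for CCNT2 (0.00793) and -0.37 for CDK9 (0.0255). It was 1.07 for AFF4 (8.74e-06) and 0.54 for ELL2 (0.00428), and -0.05 for HEXIM2 (0.832). With ribosomal protein centring the CDK9 difference turned to 0.0033 (adjusted p 0.985) and those of MEPCE and CCNT2 lost their call. Virus, selection and time differ between the 2 experiments as well as the treatment, and these cannot be told apart.

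Over all genes, DMSO and untreated cells were close to each other, while lacZ shRNA and untreated cells differed more. In DMSO against untreated no gene of the 8 was called (limma, adjusted p under 0.05), against 0.00543% higher and 0.00% lower over all genes. The changes of the 8 genes there lay between -0.15 and 0.05. In lacZ shRNA against untreated none was called either, against 0.815% higher and 2.26% lower over all genes at the adjusted threshold. The largest changes of the 8 genes are given here, although none reached the threshold. CDK9 had signals of 10.53 and 10.51 with lacZ shRNA, against 10.84 and 10.87 untreated, without overlap, and a change of -0.33 (adjusted p 0.0624). MEPCE was at 9.77 and 9.72 with lacZ shRNA, against 10.04 and 10.01 untreated, and its change was -0.28 (adjusted p 0.053). ELL2 changed by 0.30 (adjusted p 0.0969), HEXIM1 by -0.23 (adjusted p 0.0993) and HEXIM2 by -0.27 (adjusted p 0.272).

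The order of the 6 groups by mean differed by gene. CDK9 ran from 5 nM through untreated, DMSO, FLI1 shRNA and lacZ shRNA to 50 nM, and no neighbours in that order overlapped, although only some were tested. MEPCE ran the same way except that the 2 shRNA groups, which overlapped, changed places. CCNT2 had 4 groups, FLI1 shRNA, untreated, DMSO and lacZ shRNA, each overlapping its neighbour between the 5 nM and 50 nM groups. HEXIM1 had its 50 nM, FLI1 shRNA, untreated and DMSO groups overlapping in a row between the 5 nM and lacZ shRNA groups. HEXIM2 had all neighbours overlapping, over a span of group means of 0.29. CCNT1 ran from 5 nM through lacZ shRNA, untreated, DMSO and FLI1 shRNA to 50 nM, and only lacZ shRNA and untreated overlapped. AFF4 had its FLI1 shRNA, lacZ shRNA, DMSO and untreated groups overlapping in a row above the 50 nM and then the 5 nM group. ELL2 ran from FLI1 shRNA through 5 nM, lacZ shRNA, DMSO and untreated to 50 nM, with overlaps between 5 nM and lacZ shRNA and between DMSO and untreated.

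The genes whose 6 group means were most like each member's were taken from 4289 genes whose means spanned over 1 log2 unit, with Pearson's r over 6 means as the measure. They were ELOA, SLC35E4 and TNFSF9 for HEXIM1 (0.9962, 0.9961 and 0.9948), ZNF121, THUMPD1 and OGFR for CCNT1 (0.9972 to 0.9949), and FOXJ2, PCIF1 and BAG3 for CDK9 (0.9996 to 0.9954). ELOA encodes the elongin A elongation factor, and BAG3 a co-chaperone. For CCNT2 they were ZNF7, FEM1B and USP38 (0.9993 to 0.9987), for MEPCE ISG20L2, CSTF1 and CHST10 (0.9951 to 0.9931), for AFF4 TNKS, ZMYM4 and SYT14 (0.9989 to 0.9984), and for ELL2 IRF9, NAMPT and RHOBTB1 (0.9928 to 0.9849). An r over 6 means drawn from this many candidates is a description only.

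Span was set beside the changes because AFF4 and ELL2 cover far more genome than the rest. RefSeq spans, GRCh38.p14, were found for 16895 of the genes tested (91.8%). At 5 nM the median change was 0.25 for genes under 5 kb, 0.27 for 5 to 10 kb and 0.21 for 10 to 30 kb. It was 0.03 for 30 to 60 kb, -0.27 for 60 to 120 kb and -0.50 for over 120 kb. AFF4, at 88.2 kb, was at percentile 16.4 of its span class and ELL2, at 76.8 kb, at percentile 91.5. HEXIM1 (3.62 kb) was at percentile 97.1, CCNT1 (28.2 kb) at 96.2, CCNT2 (40.5 kb) at 91.7, CDK9 (4.76 kb) at 76.4 and MEPCE (5.33 kb) at 73.2. HEXIM2 (9.87 kb) was at percentile 22.8. At 50 nM the class medians ran from 0.23 under 5 kb to -0.04 for 60 to 120 kb. There, CDK9 and MEPCE were at percentiles 3.11 and 2.04 of their classes, CCNT2 at 6.72 and CCNT1 at 11.2. HEXIM2 was at 21.1, HEXIM1 at 26.7, ELL2 at 31.2 and AFF4 at 41.4.

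The wider elongation machinery was described with 64 further genes in 6 lists, 60 of them measured. At 5 nM 13 rose and 27 fell (21.7% and 45% of the 60, against 30.3% and 23.0% of all genes), with a median change of -0.09 against 0.12 over all genes. These shares are not matched for gene span, and the spans of the 60 genes were not examined. Over all genes with a span, the median change at 5 nM was 0.25 under 5 kb and -0.50 over 120 kb. Whether span accounts for the falls in these lists was not tested. With ribosomal protein centring 4 rose and 42 fell, when 1660 of all 18404 genes rose and 8304 fell. At 50 nM 6 rose and 29 fell (10% and 48.3%, against 25.8% and 23.3% of all genes), with a median of -0.21 against 0.10. With that centring 0 rose and 42 fell, when 965 of all 18404 genes rose and 7064 fell. These centred counts over all genes are also the background of the centred counts of each list below. After FLI1 shRNA 7 rose and 4 fell (11.7% and 6.67%, against 14.6% and 9.28% of all genes), with a median of 0.05 against -0.01, so both shares were below those over all genes. Between the doses, at 50 nM against 5 nM, 19 were higher and 20 lower (31.7% and 33.3%, against 21.6% and 23.1% of all genes), with a median of -0.04 against 0.02.

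Of the 9 other super-elongation subunits, 3 rose and 5 fell at 5 nM, and 0 rose and 4 fell at 50 nM. With ribosomal protein centring these counts were 2 and 5 at 5 nM, and 0 and 4 at 50 nM. With the values as deposited, 30.3% of all genes rose and 23.0% fell at 5 nM, and 25.8% and 23.3% at 50 nM. MLLT3, a YEATS-domain reader of acetylated histones, had signals of 9.68 and 9.74 in DMSO, 6.79 and 6.53 at 5 nM, and 8.61 and 8.48 at 50 nM. The groups did not overlap, and at 5 nM MLLT3 fell by 3.05 (SE 0.11, adjusted p 9.13e-09). AFF1, the other scaffold, had signals of 10.48 and 10.40 in DMSO, 8.58 and 8.79 at 5 nM, and 9.56 and 9.68 at 50 nM. It fell by 1.76 (adjusted p 4.48e-08) at 5 nM and by 0.82 (adjusted p 2.28e-05) at 50 nM, and was higher by 0.92 (adjusted p 3.28e-05) with FLI1 shRNA than with lacZ shRNA, at 11.07 and 11.04 against 10.18 and 10.09. ELL, the elongation factor related to ELL2, fell by 0.71 (adjusted p 0.00135) and by 1.11 (adjusted p 8.87e-05) at the 2 doses.

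Of the 9 measured partners of P-TEFb and 7SK, 2 rose and 3 fell at 5 nM, and 0 rose and 2 fell at 50 nM. These calls depended on the scaling, since 1 rose and 7 fell at 5 nM, and 0 rose and 8 fell at 50 nM, with ribosomal protein centring. Of all 18404 genes, 8304 fell at 5 nM and 7064 at 50 nM with that centring. As deposited, the shares over all genes were 30.3% higher and 23.0% lower at 5 nM, and 25.8% and 23.3% at 50 nM. JMJD6, a demethylase tied to 7SK, fell by 0.23 (adjusted p 0.0161) and by 0.89 (adjusted p 2.69e-06). HNRNPR fell by 0.55 (adjusted p 0.000308) at 5 nM, while HNRNPA1, whose near-identical copies make its signal uncertain, rose by 1.20 (adjusted p 1.99e-05). The 7SK RNA itself was measured only by a probe set that names a second gene, so no level is given.

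Among 15 Integrator subunits, which cut nascent RNA at paused polymerase, 2 rose and 10 fell at 5 nM, and 1 rose and 12 fell at 50 nM (0 and 13, and 0 and 14, with ribosomal protein centring). As deposited, 30.3% of all genes rose and 23.0% fell at 5 nM, and 25.8% and 23.3% at 50 nM. INTS2 fell by 1.74 and INTS3 by 1.55 at 5 nM, and INTS15, at 0.08 there, fell by 1.59 at 50 nM. Of 8 other transcription kinases and their partners, 1 rose and 5 fell at 5 nM, and 2 rose and 4 fell at 50 nM (0 and 6, and 0 and 5, with that centring). MNAT1, an assembly factor of the CDK7 kinase, fell by 1.91 at 5 nM, and CDK13 fell by 1.00 at 5 nM and by 1.44 at 50 nM. CDK19, a Mediator kinase, fell by 1.88 at 5 nM and rose by 0.32 at 50 nM (adjusted p 0.0269, and 0.639 with ribosomal protein centring), so that it was 2.21 higher at 50 nM than at 5 nM (adjusted p 4.33e-08).

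Of 13 elongation factors, 4 rose and 4 fell at 5 nM, and 1 rose and 5 fell at 50 nM. The even split at 5 nM depended on the scaling, with 1 higher and 7 lower there, and 0 and 9 at 50 nM, after ribosomal protein centring. With the values as deposited, all genes gave 30.3% higher and 23.0% lower at 5 nM, and 25.8% and 23.3% at 50 nM. IWS1 fell by 1.10 and by 1.75 at the 2 doses, RTF1 by 1.01 and by 0.94, and LEO1, at -0.03 at 5 nM, fell by 1.53 at 50 nM. Of 6 measured pausing factors, 1 rose and 0 fell at 5 nM, and 2 rose and 2 fell at 50 nM, but with that centring 0 rose and 4 fell at 5 nM, and 0 rose and 2 fell at 50 nM. SUPT4H1, a DSIF subunit, rose by 0.42 and 0.36 at the 2 doses, calls lost with ribosomal protein centring (adjusted p 0.443 and 0.261). NELFA and NELFB of the negative elongation factor fell by 0.77 and 0.32 at 50 nM.

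**Figure D3:**
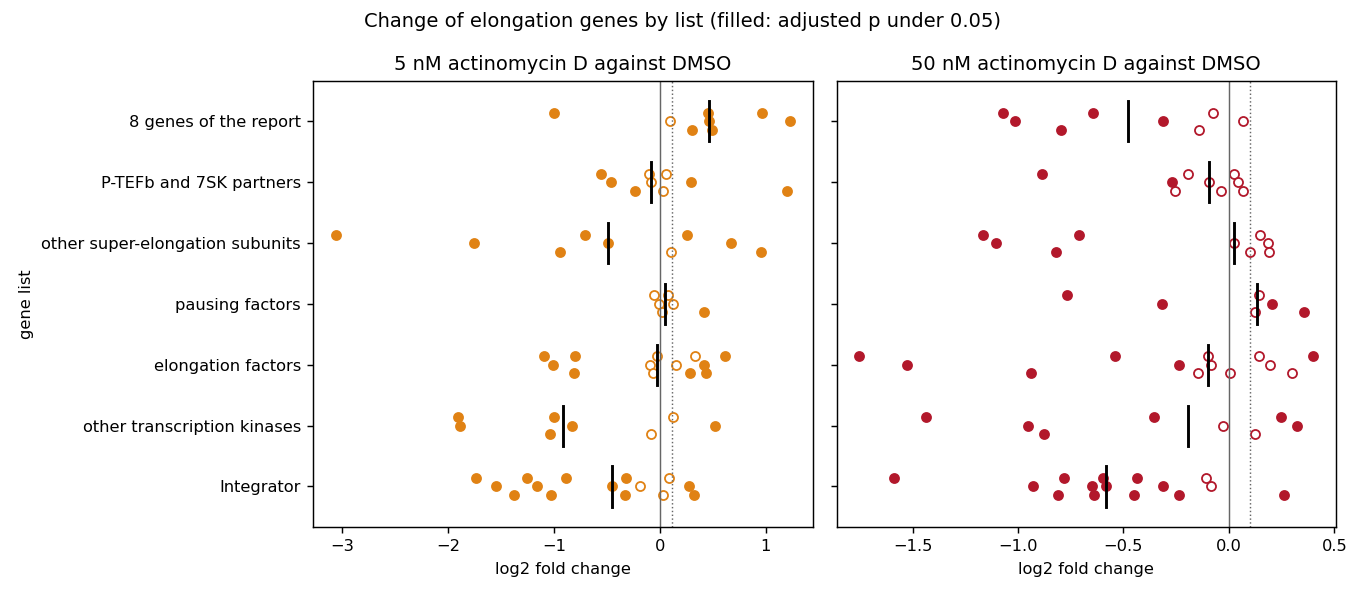
Log2 fold change (x axis) of the 8 genes and of 60 other elongation genes in 6 lists (y axis) at 5 nM (left) and 50 nM (right) actinomycin D against DMSO; each point is a gene, filled where the adjusted p was under 0.05, black bars are list medians and the dotted line is the median of all genes. Of the 60, 13 rose and 27 fell at 5 nM and 6 rose and 29 fell at 50 nM, which becomes 4 and 42, and 0 and 42, with ribosomal protein centring. That centring gave 1660 higher and 8304 lower of all 18404 genes at 5 nM, and 965 and 7064 at 50 nM.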

How the data were processed

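RNA from 12 samples of A673 cells was measured on Affymetrix arrays. Per the paper's methods and the labels, the authors background-corrected, normalized (RMA) and log2-transformed the signals with affy, and the deposited log2 values were used unchanged; versions and genome build are not given in the sources used here. Of 32321 probe sets, 19158 named a single gene, and the one with the highest mean stood for a gene, leaving 18404 genes.

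Groups came from the labels. limma 3.58.1 (R 4.3.3) fitted 6 group means over all 12 arrays (6 residual and 4.45 prior degrees of freedom), with Benjamini-Hochberg adjustment over all genes of a comparison and a threshold of 0.05. The fit was run on simulated data with independent normal noise and no shift of whole arrays, so that run cannot speak to the choice of scaling. Precision is limited by 2 arrays a group. The members and lists were chosen with earlier results of these data known. Named genes outside the 9 are up to 3 per list with the largest called change at either dose, and the 3 most alike per gene. Alternatives were another normalization, centring on ribosomal protein genes, a dim-gene filter (below percentile 40), trend and robust estimation, means over probe sets, the replicate number, fewer arrays and the methods' thresholds (fold 2, adjusted p 0.01). No raw scans were used here.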

Additional observations from a re-analysis of the deposited data

How the results depend on the processing

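Of 648 values of single genes under the alternatives, 592 kept their direction and side of the threshold, 20 lost a call, 15 gained one and 21 turned. Of the 21, 2 had been called, both turning with ribosomal protein centring: ELL2 at 5 nM, to -0.053 (adjusted p 0.58), and CDK9 in the shRNA response minus the 5 nM response, to 0.0033 (adjusted p 0.985). The other 19 were not called before or after. With the same centring HEXIM2 turned to -0.26 at 5 nM and to 0.32 in the response difference, and HEXIM1 to -0.195 at 50 nM. With a second quantile normalization HEXIM2 turned to 0.12 at 50 nM and to -0.0067 after FLI1 shRNA. Leaving out an array in turn gave HEXIM2 values of -0.041 to 0.136 after FLI1 shRNA, -0.055 to 0.246 at 5 nM, -0.226 to 0.074 at 50 nM, -0.234 to 0.067 in DMSO against untreated and -0.198 to 0.102 in the response difference. It gave -0.042 to 0.0065 for MEPCE after FLI1 shRNA, -0.067 to 0.045 for CCNT2 and -0.025 to 0.134 for ELL2 in DMSO against untreated, and -0.035 to 0.082 for CCNT1 in lacZ shRNA against untreated. The cause was not tested. Ribosomal protein centring also left 2 of 6 genes called higher at 5 nM, 2 of 5 lower in the response difference, and gave 2 lower in lacZ shRNA against untreated, where there had been 0. It moved the median of all genes to 0.24 in the response difference (-0.13 as deposited) and the share of calls that were higher to 84.7% from 49.0% there and to 59.9% from 48.3% in 50 nM against 5 nM.

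A second quantile normalization left 1 gene higher after FLI1 shRNA, added 1 lower there, added 1 higher at 50 nM (HEXIM1) and added 1 higher in lacZ shRNA against untreated (ELL2), where the share of calls that were higher was 46.1%, against 26.5%. Leaving out dim genes added 1 lower after FLI1 shRNA and gave 1 higher and 3 lower in lacZ shRNA against untreated, and in DMSO against untreated 27.3% of calls were higher, against 100%. Trend and robust estimation added 1 lower after FLI1 shRNA, 1 lower at 50 nM (AFF4, making 6) and 2 lower in lacZ shRNA against untreated. The mean over probe sets left 5 higher at 5 nM, without ELL2. A fit of only the groups compared left 1 higher after FLI1 shRNA. Leaving out an array in turn gave 1 to 2 higher after FLI1 shRNA. At a fold over 2 and an adjusted p under 0.01 the counts were 0 higher after FLI1 shRNA, 1 higher at 5 nM, 2 lower at 50 nM, 0 higher at 50 nM against 5 nM, and 1 higher and 1 lower in the response difference. The CDK9 response difference lost its call in 6 of the fits that left out an array (adjusted p 0.055 to 0.0761).

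Of the 60 further genes, 6 were higher at 50 nM, against 11 after a second quantile normalization, 10 with trend and robust estimation, and 3 without DMSO replicate 1 or without 50 nM replicate 1. After FLI1 shRNA 7 were higher, against 4 without lacZ shRNA replicate 2. There 4 were lower, against 7 without dim genes, 8 with the second normalization, 8 with trend and robust estimation, 2 in a fit of only these groups, and 1 without any 1 of the 4 arrays.

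With the replicate block, 6 genes stayed higher and 1 lower at 5 nM, and the block changed no call of the 8 genes in any comparison. Over all genes it left 5471 higher at 5 nM, against 5581 without it. Deviations of arrays with the same number correlated at -0.453 to 0.174. The most negative values were lacZ shRNA with untreated (-0.453) and DMSO with untreated (-0.262). A block by number would not remove a difference that runs across the numbers, and whether there was one was not tested. With 2 arrays a group, small changes were within the spread between arrays, and HEXIM2 (0.30 between DMSO arrays) was the least precise.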
